A study of Schizosaccharomyces pombe with 78 samples.

Results

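Cells of fission yeast that were in G2 because they had been stopped there were compared with cells of the same strain that were passing through G2 in a running cycle. The strain carries *cdc25-22* and *nrm1-HA*, so its Nrm1 is wild type apart from the HA tag, and it is called Nrm1 here. Blocked G2 was the culture at 0 min, after 4 h at 36 °C, and cycling G2 was the same kind of culture at 120 and 140 min after the shift back to 25 °C, when cells had divided once and were in the next G2. These samples make up 6 of the 78 libraries of the series, 2 replicates at each of the 3 times. The series holds 3 strains (Nrm1, Nrm1-SA and Nrm1-SD). For each of them there is an asynchronous culture, kept at 25 °C, and a course of 12 times spaced by 20 min. Nrm1-SA-HA and Nrm1-SD-HA are the phosphorylation-deficient and the phosphomimetic forms of Nrm1, and they carry *cdc25-22* as well. All groups therefore share the mutation and the tag, and no strain with a wild-type *cdc25* was analysed here. Blocked and cycling cells differ in temperature, in time in culture and in the state of the cycle at once, and these cannot be told apart in this comparison.

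Cdc25 is the phosphatase that removes the inhibitory phosphate which Wee1 and Mik1 place on the kinase Cdc2 (CDK1), and a cell without it stays in G2 and goes on growing in length. The *cdc25-22* product loses its function in the heat, and cooling lets all cells enter mitosis together. The shift itself is a heat stress. In fission yeast the transcription factor Hsf1 binds heat shock elements made of the units GAANNTTC and TTCNNGAA and drives the genes of chaperones, which refold damaged proteins. The MAP kinase Sty1 and its factor Atf1 drive a wider set of stress genes. Genes of the cycle itself come in waves: MBF drives the genes of G1/S and is held down by Nrm1 and Yox1, histone genes are transcribed in S phase, forkhead factors drive mitotic genes, and the genes of cell separation follow at the end of mitosis.

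The values were read counts divided by the size factor of their library, as deposited, and are called normalized counts. The blocked libraries held 10447992 and 3345937 reads on annotated features, those of 120 min 7892952 and 5793054, and those of 140 min 6339521 and 5667919, so replicate 2 of the block was the shallowest of the 6. Polyadenylated RNA was measured, and every value is relative to the rest of the transcriptome. In these bulk cultures, fewer cells that express a gene and less RNA per cell cannot be told apart. The strand setting of the counting was not given in the sources used here, and 91.6% of the features tested overlap a gene on the other strand, so reads of such partners may not be separated.

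The levels of genes that mark other phases were read against the asynchronous culture to check the labels. As the plot of gene lists over time shows, the G1/S genes of MBF were as low at 120 and 140 min (median -0.26 and -0.23 on the log2 scale) as at the block (-0.23), after 1.5 at 60 min. Mitotic genes stood at -0.40 and -0.41, after 1.06 at 60 min, and cell separation genes at -2.09 and -2.13, after 1.41 at 80 min. Histone mRNAs were still falling: their median was -0.21 at 120 min and -1.09 at 140 min, after 0.86 at 100 min and against -2.34 at the block. Cycling G2 at 120 min thus still held S-phase transcripts, and the results on histones are given for both times.

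**Figure D1:**
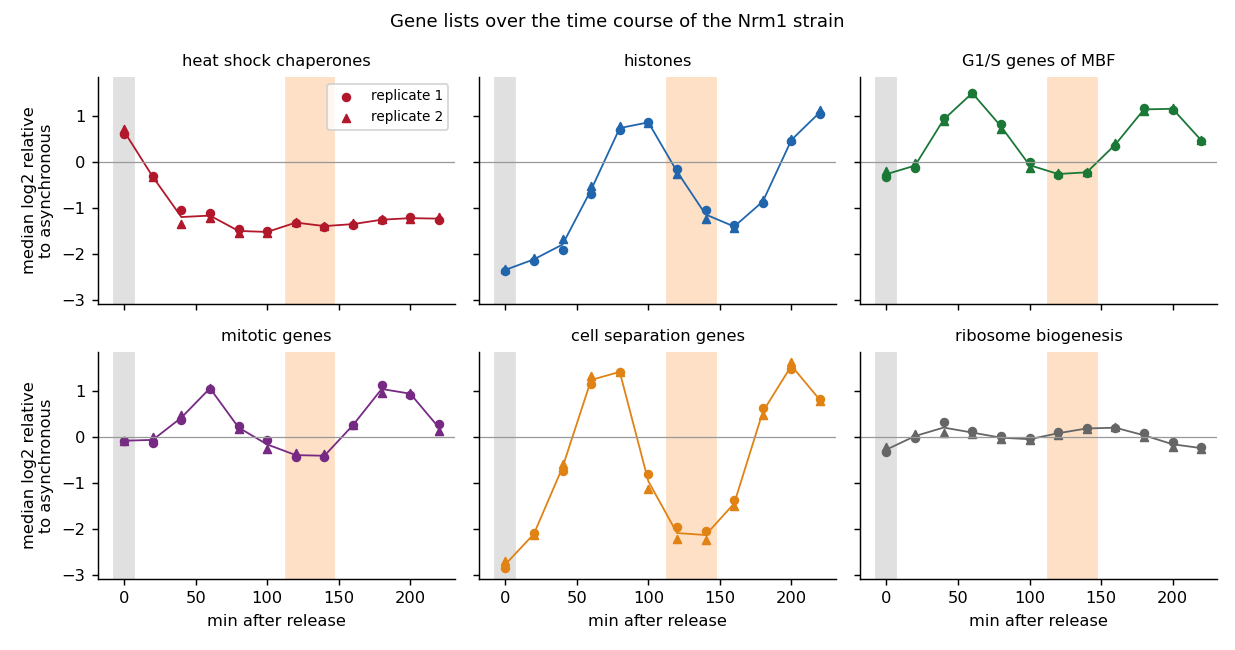
Median log2 level of 6 gene lists in the Nrm1 strain relative to the mean of the asynchronous libraries, against minutes after release. Circles and triangles are replicates 1 and 2, lines join their means, grey marks the block (0 min) and orange the cycling G2 samples (120 and 140 min). The chaperones leave their level at the block within 40 min and then stay between -1.037 and -1.541, whereas the lists of the cycle return towards it.

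In all, 7429 features had a mean normalized count of at least 10 and entered a limma fit of log2(normalized count + 1). The difference is the mean of 120 and 140 min minus the block, so that a negative value means a higher level in blocked cells. Of these features, 4549 (61.2%) passed an adjusted p of 0.1 and are said to have changed. With the deposited size factors they were split evenly, with 2287 (30.8%) higher and 2262 (30.4%) lower in cycling G2. This balance depends on the scaling: when libraries were scaled by their total, 2573 were higher and 1890 lower. The median absolute difference was 0.34, and a difference of at least 1 (a doubling) was found for 492 features that rose (6.62%) and 522 that fell (7.03%). The 4 cycling and the 2 blocked libraries did not overlap for 4652 features (62.6%). On this scale the change of a gene with few counts comes out too small. Large changes were more frequent among noncoding RNAs: of 4926 protein-coding genes, 129 rose and 194 fell by at least 1 (2.62% and 3.94%), and of 2409 long noncoding RNAs, 349 rose and 320 fell (14.5% and 13.3%). Such shares depend on the counts: among 5355 features with a mean of at least 50, 184 rose and 222 fell by at least 1. The 2 classes were not matched for their counts.

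The genes of molecular chaperones were much higher in blocked cells. Of 22 listed, 19 fell in cycling G2, 18 of them by at least 1, *sks2* and *hsf1* rose, and *mdj1* did not pass the test, so that 95.5% changed, beside 61.2% of all features. The median difference of the list was -2.64, beside 0.00 over all features tested. Together these genes took 4.58% and 4.51% of all reads at the block, between 1.34% and 1.40% in the 4 cycling libraries, and 2.69% and 2.81% in the asynchronous ones. Taken over the libraries numbered 1 alone and those numbered 2 alone, the median was -2.55 and -2.70. The upstream sequences of 6 genes with large falls are shown because they hold heat shock elements. Each is a stretch upstream of the annotated gene start in RefSeq ASM294v3, written 5′ to 3′ on the strand of the gene, with matches to GAANNTTC or TTCNNGAA in capitals. The stretches are II:2661063-2661100 for *hsp16*, I:2297995-2298068 for *ssa1*, III:2056969-2057011 for *ssa2*, I:4931211-4931253 for *wis2*, I:3891174-3891211 for *hsp90* and III:2195575-2195651 for *psi1*.
hsp16: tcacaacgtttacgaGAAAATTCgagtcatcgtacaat
ssa1: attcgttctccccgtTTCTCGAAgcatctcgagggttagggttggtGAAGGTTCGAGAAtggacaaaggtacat
ssa2: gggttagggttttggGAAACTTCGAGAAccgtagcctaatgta
wis2: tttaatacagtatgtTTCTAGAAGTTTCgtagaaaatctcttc
hsp90: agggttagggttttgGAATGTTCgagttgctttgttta
psi1: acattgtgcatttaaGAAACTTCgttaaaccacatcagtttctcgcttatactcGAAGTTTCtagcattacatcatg

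In *ssa1*, *ssa2* and *wis2* the 2 kinds of unit overlap by 3 bases, so that 3 repeats stand in a row. Either unit was present within 250 bases upstream of 14 of the 22 chaperone genes (63.6%) and of 810 of the 4926 protein-coding genes tested (16.4%). Among protein-coding genes that fell by at least 1, 54 of 194 (27.8%) held one, and among those that rose by at least 1, 16 of 129 (12.4%). The 54 include all 14 of these chaperone genes, so the 27.8% is not separate from the 63.6%. The windows of *hsp104* and *hsp78* held neither, although both genes fell by more than 2.7.

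Among the Hsp70 chaperones of the cytosol, *ssa1* had 3175 and 3668 normalized counts at the block, 91.15 and 77.94 at 120 min, and 59.02 and 77.84 at 140 min. Its level in blocked cells was 44.7-fold that of cycling cells, a difference of -5.48 (SE 0.225, adjusted p = 9.6e-27). The more abundant *ssa2* went from 46400 and 52862 to between 2379 and 3482 (difference -4.10, SE 0.134), and it rose again between 120 and 140 min (0.54, adjusted p = 0.0412). The third cytosolic Hsp70 gene, *sks2*, whose product binds to ribosomes, rose by little (0.21, SE 0.0753). In each of the falls the blocked libraries lay far above all 4 cycling libraries.

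Hsp90 and its partners fell together. *hsp90* had 51318 and 49646 normalized counts at the block and 3694 to 4330 in cycling G2 (difference -3.67, SE 0.084). *wis2*, which encodes a cyclophilin that works with Hsp90 and is not in the list, showed the largest fall of the protein-coding genes tested. Its values were 11003 and 11873 at the block, 235.1 and 218.2 at 120 min, and 243 and 222.9 at 140 min, a level 49.8-fold higher in blocked cells (difference -5.63, SE 0.0826, adjusted p = 8.0e-47). The cochaperone genes *sti1*, *aha1*, *wos2* and *cdc37* differed by -3.63, -3.07, -2.56 and -1.13. *psi1*, a partner of Hsp70 with a DNAJ domain, went from 2960 and 3799 to between 191.8 and 265.9 (-3.86, SE 0.12), and *fes1*, a nucleotide exchange factor of Hsp70, differed by -3.21.

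The small chaperone gene *hsp16* had 3978 and 4382 normalized counts at the block, 106.9 and 130.2 at 120 min, and 79.85 and 97.06 at 140 min (difference -5.34, SE 0.192). *hsp104*, the disaggregase, differed by -2.81. Chaperones of the mitochondrion (*hsp10* -2.77, *hsp78* -2.72, *mcp60* -1.72, *ssc1* -1.44) and of the endoplasmic reticulum (*bip1* -1.53) fell by less than *ssa1* or *hsp16*, and *hsp9* by the least of the 19 (-0.67). The gene of the regulator, *hsf1*, went the other way, from 591.8 and 649.5 to between 867.9 and 967.7 (0.57, SE 0.0596). Without replicate 1, only 1 of the 2 rises in the list passed the test.

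**Figure D2:**
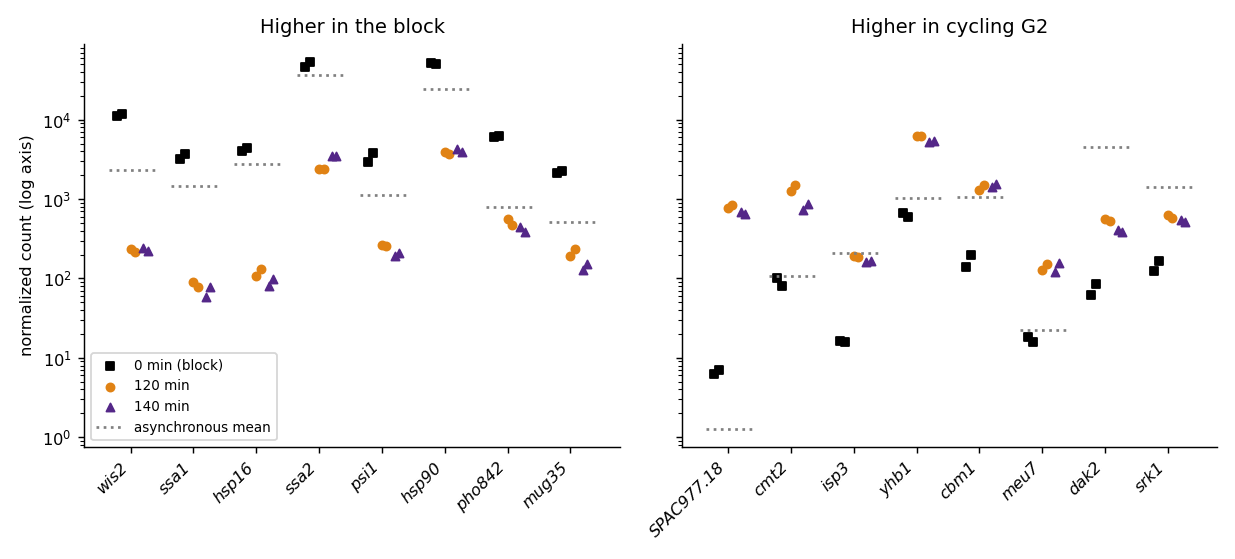
Normalized counts on a log axis for 8 genes higher in the block (left) and 8 higher in cycling G2 (right), 1 point per library, with squares for 0 min, circles for 120 min and triangles for 140 min. Dotted lines are asynchronous means. In every gene shown the 2 blocked libraries lie apart from the 4 cycling ones, and for wis2 the asynchronous mean of 2309 lies between them.

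The fall was early and lasting. Relative to the asynchronous culture, the median of the chaperones was 0.66 at the block, -0.31 at 20 min, -1.19 at 40 min, -1.31 at 120 min and -1.39 at 140 min, and it was still -1.23 at 220 min. For *ssa1* the mean was 110 normalized counts at 20 min, but for *hsp16* and *wis2* it was still 1299 and 4697 then. Cycling G2 also lay below the asynchronous culture grown at 25 °C, which had 1807 and 1092 normalized counts of *ssa1*. The asynchronous libraries differed from each other in *hsp16* (3681 and 1773), and the higher value lay near the block (3978 and 4382). For *ssa2* they had 33808 and 39521, nearer to the block (46400 and 52862) than to cycling G2 (2379 to 3482). For *wis2*, with 2211 and 2407, the block was far higher (11003 and 11873).

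The cytosolic chaperonin CCT, which folds actin and tubulin, did not share this pattern: 5 of its 8 genes rose and *cct1* fell, all by less than 0.32 (median 0.14), so that 75% changed, beside 61.2% of all features. Without replicate 1, 3 of them rose, and without replicate 2, *cct1* did not pass the test. Of 31 proteasome genes, 6 were higher and 14 lower, with a median of -0.06, and the share that changed (64.5%) was near that of all features (61.2%). The largest falls were *rpn12* (-0.55), *rpn6* (-0.37), *rpt4* (-0.34) and *rpn11* (-0.34), all in the regulatory particle, and without replicate 1 only 1 proteasome gene rose.

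Of 23 general stress genes, 6 were higher and 10 lower, with a median of -0.17, and the share that changed was 69.6%, beside 61.2% of all features. Relative to the asynchronous culture, the median of this list was already -0.58 at the block, and it was -0.93 at 120 min and -1.03 at 140 min. *tps1*, which makes trehalose, had 4241 and 4279 normalized counts at the block and 1009 to 1360 in cycling G2 (-1.88, SE 0.0804). Its asynchronous values were 3820 and 2933. The trehalase gene *ntp1* differed by -1.27 (SE 0.108) and *gpd1*, needed to make glycerol, by -1.20. *plr1* (pyridoxal reductase) had the largest fall of the list, from 4393 and 4585 to between 1079 and 1203 (-1.96, SE 0.0555), and *sod1* differed by -1.16. Other members rose: *obr1* (an NAD(P)H dehydrogenase) from 1061 and 1175 to between 3323 and 4483 (1.78, SE 0.08), *rds1* by 1.24, and the catalase gene *ctt1* by 0.79. The kinase gene *srk1*, a target of Sty1 outside the list, rose from 124.8 and 166.3 to between 518.9 and 623.7 (1.97, SE 0.124). The Atf1 site ACGTCA, on either strand, was found upstream of 6 of the 23 general stress genes (26.1%) and of 5.5% of protein-coding genes.

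**Figure D3:**
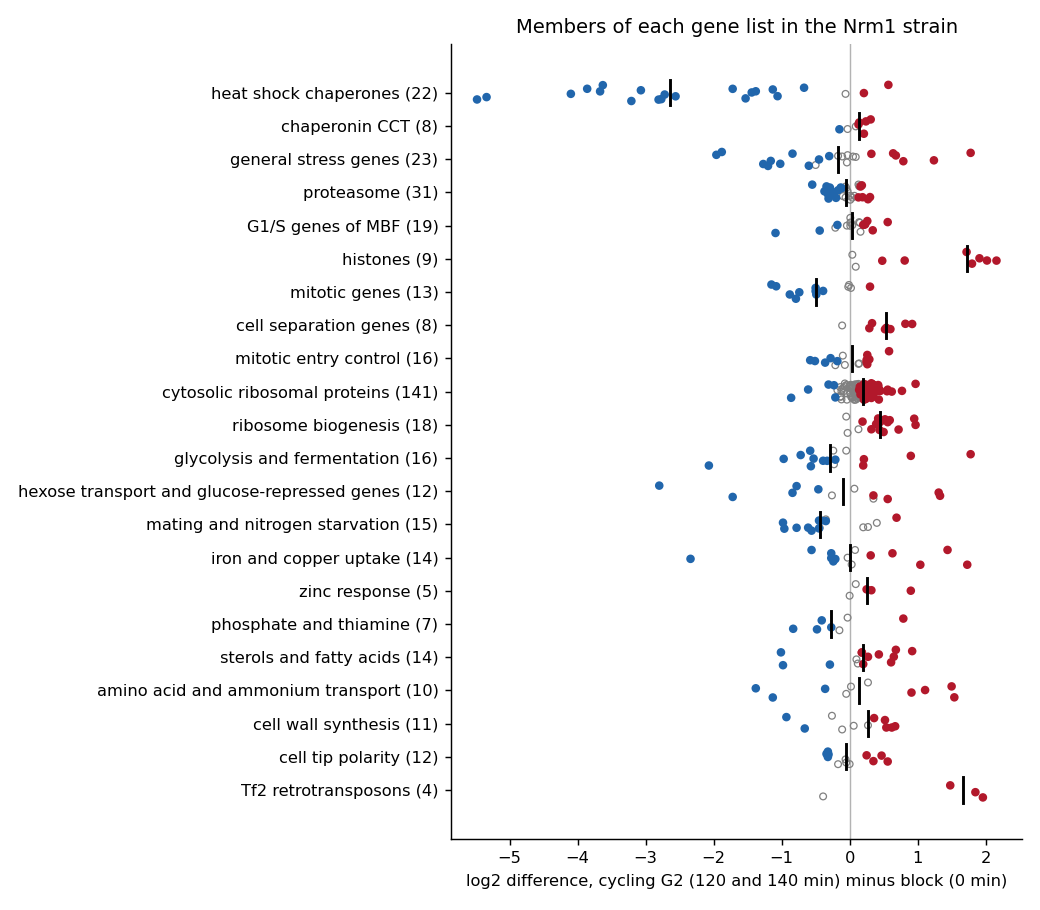
Log2 difference between cycling G2 and the block for the tested members of 22 gene lists, with the number tested in parentheses. Red and blue points passed the test as higher or lower in cycling G2, open points did not, and bars are medians. The chaperones reach -5.48 and the histones 2.16, whereas the G1/S genes and the mitotic entry genes lie near 0.

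Genes that control entry into mitosis differed by less than 0.6, and 11 of 16 passed the test (68.8%, beside 61.2% of all features). *cdc25* itself was higher in blocked cells, with 374.8 and 446.4 normalized counts against 249.5 and 253.1 at 120 min and 298.6 and 294.1 at 140 min (-0.58, SE 0.116, adjusted p = 3.0e-05). *wee1* was lower in the block, with 255.8 and 255.6 against 296.9 to 314.6 (0.26, SE 0.108, adjusted p = 0.0365), and it did not pass the test without replicate 1 or without replicate 2. The mitotic cyclin *cdc13* went from 1496 and 1537 to between 1834 and 1885 (0.29, SE 0.0544). *cdc2* did not pass the test (-0.07, SE 0.0685), and its values overlapped. *rad24*, a 14-3-3 protein that binds Cdc25, differed by -0.51, the cyclin *puc1* by 0.58, and the CDK inhibitor *rum1* by -0.36, a call that was lost without replicate 2 (-0.24). Without replicate 2, 3 genes of this list rose and 3 fell, in place of 6 and 5.

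MBF genes hardly differed between the 2 kinds of G2. Of 19, 6 rose, 3 fell and 10 did not pass the test, so that 47.4% changed, beside 61.2% of all features, and the median was 0.04. *cdc18*, which licenses replication, had 649 and 654.7 normalized counts at the block and 587.3 to 704.4 in cycling G2 (0.01, SE 0.0535). *cig2* (0.14, SE 0.0792), *mik1* (-0.21, SE 0.129) and *yox1* (0.01, SE 0.088) did not pass the test either. The exception in size was *nrm1*, which had 794.2 and 1133 normalized counts at the block, 460.6 and 499.7 at 120 min, and 403.6 and 418 at 140 min (-1.09, SE 0.112, adjusted p = 6.2e-12). Its level in the block was also above the asynchronous mean of 488. The ribonucleotide reductase gene *cdc22* rose from 3070 and 3179 to between 4357 and 4751 (0.56, SE 0.0694), *cdt1* by 0.34, and *pol1* differed by -0.44. Without replicate 1, 3 genes rose. The MCB sequence ACGCGT, the element of MBF, was within 250 bases upstream of 10 of the 19 genes (52.6%) and of 2.62% of protein-coding genes.

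Histone mRNAs were low in blocked cells and higher in cycling G2, most of all at 120 min. Of 9 genes, 7 rose (77.8%, beside 30.8% of all features) and 2 did not pass the test, and the median was 1.72 (2.26 at 120 min alone and 1.18 at 140 min alone). The H4 gene *hhf3* had 193.4 and 259.1 normalized counts at the block, 1884 and 1770 at 120 min, and 629.3 and 478.6 at 140 min (2.16, SE 0.147). *hht1* (H3) rose by 2.02, *hht3* by 1.91, *hhf1* by 1.80 and *hta2* (H2A) by 1.72. Members were unequal: *hht2* went from 1999 and 2134 to between 1998 and 2376 (0.09) and *hhf2* from 1090 and 1021 to between 785.1 and 1397 (0.04), and in both the groups overlapped. In the block these genes were the most abundant of the H3 and H4 genes, whereas at 120 min *hht1* had 3111 and 2952 normalized counts against 2325 and 2376 of *hht2*. No other gene matched any of the 9 at 95% identity or more over 50% of its length, so none met the limit used here for near-identical copies. The upstream element of histone genes is shown for 2 of them, with AACCCT in capitals, at I:4699637-4699678 for *hht1* and II:3529612-3529653 for *hhf3* (RefSeq ASM294v3).
hht1: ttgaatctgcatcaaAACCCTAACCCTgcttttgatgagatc
hhf3: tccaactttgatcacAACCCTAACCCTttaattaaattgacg

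AACCCT followed directly by AACCC, read on either strand, was within 250 bases upstream of all 9 histone genes. Some of these are divergent neighbours, whose windows overlap. It was found for 21 of the 4926 protein-coding genes tested (0.426%). Of these, 3 were chaperone genes: it reads as its complement, gggttaggg, in the stretches of *ssa1*, *ssa2* and *hsp90* printed above, next to their heat shock elements. Genes with this element therefore include both histones that rose in cycling G2 and chaperones that fell.

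Mitotic genes were modestly higher in the block than in cycling G2. Of 13, 9 fell and *rlc1* rose (0.30), so that 76.9% changed, beside 61.2% of all features, and the median was -0.50. *spo12* had 122.7 and 157.6 normalized counts at the block and 52.27 to 76.88 in cycling G2 (-1.15, SE 0.136), and *cdc15*, a component of the contractile ring, 665.7 and 665.2 against 261.3 to 369 (-1.08, SE 0.0989). The Polo kinase gene *plo1* differed by -0.88, the Aurora kinase gene *ark1* by -0.79 and the forkhead gene *fkh2* by -0.74. *plo1* rose between 120 and 140 min, from 194 and 199.9 to 319.4 and 333.5 (0.73, adjusted p = 1.5e-04), as did *slp1* (0.82, adjusted p = 2.6e-04), so part of the difference depended on the time chosen. The kinesin genes were divided, with *klp5* (-0.50) and *klp9* (-0.39) lower and *klp8* and *cut7* within 0.03 of 0. The forkhead sequence GTAAACA was upstream of 7 of the 13 genes (53.8%) and of 14.8% of protein-coding genes.

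Cell separation genes were near their lowest level in both groups, and slightly higher in cycling G2. Of 8 genes, 7 rose (87.5%, beside 30.8% of all features), *eng1* did not pass the test, and the median was 0.53. *adg2* went from 249 and 266.1 to between 362.3 and 581.2 (0.92, SE 0.208) and *mid2* from 537.3 and 542.7 to between 878.3 and 998.5 (0.82, SE 0.103), while the asynchronous means were 2592 and 2393. The smaller differences were unequal between replicates. The difference of *agn1* was 0.86 over the libraries numbered 1 and 0.21 over those numbered 2, that of *adg1* was 1.02 and 0.17, and without replicate 1 only 2 of the 8 genes passed the test.

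Genes of ribosome biogenesis were lower in the block. Of 18 tested, 15 rose in cycling G2 (83.3%, beside 30.8% of all features), none fell, and the median was 0.44. Of the H/ACA particle, which guides pseudouridylation of rRNA, *nhp2* went from 844.5 and 868.3 to between 1497 and 1834 (0.97, SE 0.0716), and *gar1* rose by 0.72, *cbf5* by 0.59 and *nop10* by 0.56. The genes of the C/D particle, which guides methylation of rRNA, rose by 0.52 (*fib1*), 0.50 (*nop58*) and 0.47 (*nop56*). Nucleolin, *gar2*, rose from 4004 and 3990 to between 6595 and 8888 (0.95, SE 0.0869). Of 141 cytosolic ribosomal protein genes, 75 were higher and 5 lower, with a median of 0.19. The share that changed in either direction, 56.7%, was below the 61.2% of all features. The changes were mostly rises, whereas 30.8% of all features rose and 30.4% fell. They took 12.5% and 13.2% of the reads at the block and 14.7% to 15.5% in cycling G2. Among them *rps1401* rose from 1523 and 1717 to between 2798 and 3506 (0.97), *rpp202* by 0.77 and *rps2802* by 0.62, whereas *rpl3002* fell (-0.86). The count of higher ribosomal protein genes rested on replicate 1: without it, 22 passed the test. Without replicate 2, 2 of these genes were lower.

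In glycolysis and fermentation, 9 of 16 genes were higher in the block and 4 in cycling G2 (median -0.28), so that 81.2% changed, beside 61.2% of all features. The phosphoglycerate kinase gene *pgk1* went from 58683 and 57732 normalized counts to between 12739 and 15089 (-2.07, SE 0.108), the largest fall of the list. Pyruvate decarboxylase, *pdc101*, the last step but 1 of fermentation, had 103409 and 113994 at the block and 53418 to 57958 in cycling G2 (-0.97, SE 0.101). The enolase genes moved apart, with *eno101* at -0.39 and the rarer *eno102* at 1.78 (22.02 and 28.01 against 77.84 to 106.2). *adh4* rose by 0.90, a call lost without replicate 1 (0.79, adjusted p = 0.102), and without replicate 1 only 1 gene of the list was higher.

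Of the hexose transporter genes tested, *ght1* (-0.78), *ght2*, *ght3* (-0.84), *ght4* (-0.46) and *ght6* fell, and *ght5* and *ght8* rose. *ght6* had 84.92 and 117.3 normalized counts at the block and 8.649 to 20.17 in cycling G2 (-2.80, SE 0.311), and *ght2* 3169 and 3037 against 788 to 1076 (-1.72, SE 0.0959), while *ght8* rose from 1664 and 1737 to between 3751 and 4765 (1.31, SE 0.0856) and *ght5*, the main high-affinity glucose transporter, by 0.56. Of the 12 tested genes of hexose transport and glucose repression, 4 rose and 5 fell (median -0.10), so that 75% changed, beside 61.2% of all features. The glucose-repressed genes were low in both groups: *fbp1* had 66.57 and 70.03 at the block and 48.05 to 77.03 in cycling G2, with an asynchronous mean of 1725, and *inv1* had 39.84 and 64.77 and then 111.5 to 162.3, with an asynchronous mean of 5064. The rise of *inv1* (1.33, SE 0.48) did not pass the test without replicate 1. Without replicate 1, 2 genes of the list rose, and without replicate 2, 2 fell.

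Nutrient uptake changed gene by gene. Of 14 genes of iron and copper uptake, 5 rose and 6 fell (median 0.00), so that 78.6% changed. The shares that changed among the other nutrient lists were 70% for amino acid and ammonium transport, 71.4% for phosphate and thiamine and 60% for zinc, all to be read beside 61.2% of all features. The copper transporter genes *ctr5* and *ctr4*, whose products work as a complex, rose together (1.44 and 1.04), and *frp1*, an iron reductase, rose from 74.44 and 75.28 to between 163.2 and 387.9 (1.73, SE 0.233). The siderophore transporter gene *str3* fell from 727.1 and 705.5 to 181.6 and 270.5 at 120 min and 86.79 and 90.33 at 140 min (-2.34, SE 0.387). Without replicate 2, 3 genes of this list fell. Amino acid and ammonium transporters were split 4 to 3 of 10 (median 0.14): the proline transporter *put4* rose by 1.54 (SE 0.118) and the ammonium transporter *amt1* went from 224.9 and 241.6 to between 548.7 and 722.4, and *agp3* and *aat1* differed by -1.38 and -1.13. In phosphate and thiamine metabolism, 1 of 7 rose and 4 fell (median -0.27), with the thiamine-repressible phosphatase *pho4* at 0.79, *thi2*, which went from 70300 and 69911 to between 38500 and 40387, at -0.83, *tgp1* at -0.48 and *thi4* at -0.41. Zinc genes showed 3 rises of 5 (median 0.25), among them *zhf1* (0.32) and *zrt1* (0.25), and 1 without replicate 1.

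In sterol and fatty acid synthesis, 9 of 14 genes rose and 3 fell (median 0.19), so that 85.7% changed, beside 61.2% of all features. The Δ9 desaturase *ole1* went from 2590 and 3577 to between 4882 and 6858 (0.92, SE 0.186) and *erg11* rose by 0.68, but *erg1* (squalene monooxygenase) fell from 1799 and 2029 to between 887.9 and 1011 (-1.01, SE 0.0814) and *erg31* by 0.98 on the same scale. Of 11 genes of cell wall synthesis, 5 rose and 2 fell (median 0.27), and the share that changed (63.6%) was near that of all features. The synthases *chs1* and *bgs1* rose by 0.67 and 0.62, and the surface proteins *ecm33* and *gas1* fell (-0.93 and -0.66), *ecm33* from 12857 and 12680 to between 5765 and 8075. Of 12 genes of cell tip polarity, 4 rose and 4 fell (median -0.06), a share of 66.7%, also near that of all features. *tea1* (0.56), *tea4* (0.47), *bud6* (0.35) and the kinase gene *pom1* (0.25) rose, and *tea3* (-0.32), *tip1* (-0.32), the GTPase gene *cdc42* (-0.31) and the formin gene *for3* (-0.34) fell. Of 15 tested genes of mating and nitrogen starvation, 9 fell and only *map2* rose (median -0.44), so that 66.7% changed, beside 61.2% of all features. The pheromone-response genes *fus1* (-0.98, SE 0.132), *ste6* (-0.96) and *spk1* (-0.78) and the regulators *ste11* (-0.61) and *mei2* (-0.45) were all higher in the block. The rise of *map2* (0.69) rested on 5.242 to 19.26 normalized counts in groups that overlapped, and it was lost without replicate 1.

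Outside these lists, several genes with large falls were far higher in the block than in the asynchronous culture. *mug146*, a gene first found among those induced in meiosis, had 954 and 973.3 normalized counts at the block and 21.7 to 42.18 in cycling G2 (-5.14, SE 0.294), with an asynchronous mean of 7.04. *SPBPB2B2.05*, which encodes a glutamine amidotransferase, went from 940.9 and 1028 to 58.25 and 57.77 at 120 min and 25.17 and 17.3 at 140 min (-4.78, SE 0.198), with an asynchronous mean of 21.1. *pho842*, annotated as a transporter of inorganic phosphate, had 5994 and 6316 at the block and 383.4 to 555.1 in cycling G2 (-3.74, SE 0.154), with an asynchronous mean of 790. *mug35* went from 2129 and 2285 to between 128.5 and 235.7 (-3.67, SE 0.105). Some of these genes lay beside each other. *mug146* is the neighbour of *ght6* on chromosome III, and the noncoding RNA with the largest fall among those with a mean of at least 50, *SPNCRNA.980* (1846 and 2230 to between 74.96 and 121, -4.41, SE 0.153), is transcribed away from *pho842* from an adjacent start. The next noncoding falls by this rule were *SPNCRNA.687* (282.5 and 329.1 to between 10.42 and 23.3, -4.10) and *SPNCRNA.1276* (772.7 and 828 to between 46.6 and 69.69, -3.89).

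The largest rises were of genes that had few reads in the block. *SPAC977.18*, near the left end of chromosome I, had 6.29 and 7.003 normalized counts at the block, 777.2 and 829.9 at 120 min, and 690.9 and 640 at 140 min (6.58, SE 0.49, adjusted p = 1.7e-16). It has a near-identical copy, *SPBPB2B2.18*, so the source of its reads is uncertain, and the asynchronous mean was 1.28. *SPAC977.05c* went from 2 reads in both blocked libraries together to 250 reads in the cycling ones, a ratio of 65.3 with a 95% exact (Clopper-Pearson) interval of 17.9 to 542 that covers counting error only. It shares its sequence with *SPBC1348.06c* and *SPBPB2B2.15*. Others started from a higher level. *cmt2*, a catechol O-methyltransferase, rose from 100.6 and 80.53 to 1255 and 1483 at 120 min and 724.7 and 862.9 at 140 min (3.51, SE 0.18), and *yhb1*, the nitric oxide dioxygenase, from 665.7 and 590 to between 5279 and 6220 (3.20, SE 0.0708). *cbm1*, with a cellulose-binding domain, rose from 141 and 197.8 to between 1305 and 1546 (3.10, SE 0.0972).

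Among the other rises, *isp3*, a spore coat gene, went from 16.25 and 15.76 to between 160.6 and 191.9 (3.38, SE 0.177), where the asynchronous mean was 211. *spo6*, which acts with the kinase Spo4 in meiosis, rose 11.9-fold from 17 reads in the blocked libraries (95% exact interval 7.35 to 20.7), and the amylase gene *meu7* from 18.35 and 15.76 to between 120.6 and 154.7 (2.95, SE 0.157). *SPAC24B11.14* rose 8.21-fold from 14 reads (4.79 to 15.3). The dihydroxyacetone kinase gene *dak2* rose from 61.86 and 85.78 to between 387.3 and 564 (2.65, SE 0.3), still far below the asynchronous mean of 4567. The noncoding rises named by the same rule were *SPNCRNA.6375*, 13.1-fold from 19 reads (8.28 to 21.9), *SPNCRNA.1378* (14.68 and 10.5 to between 103.8 and 229.2, 3.59) and *SPNCRNA.6197* (15.2 and 19.26 to between 191.2 and 239.3, 3.55). Of 13 Tf2 retrotransposons 4 were tested and 3 rose (75%, beside 30.8% of all features). These 3 went from 5.252 to 17.51 normalized counts at the block to between 22.62 and 53.81. Their copies are near-identical, and reads cannot be assigned to any of them with certainty. The 2 mitochondrially encoded features tested, of 37, did not pass the test.

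Features near chromosome ends changed more. Within 100 kb of an end of chromosome I or II, 94 of 124 features changed (75.8%), with 35 rises (28.2%) and 25 falls (20.2%) of at least 1 and a median absolute difference of 0.96. Elsewhere, 6.14% rose and 6.78% fell by at least 1, and the median absolute difference was 0.34. These shares are descriptions, and part of the features near ends have near-identical copies.

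The 2 samples of cycling G2 were alike by comparison. Between 140 and 120 min, 413 features changed (5.56%), 219 higher and 194 lower at 140 min, and 25 fell and 1 rose by at least 1. Histones were prominent: 8 of 9 fell, with a median of -0.94, and *hhf3* differed by -1.73 (SE 0.17, adjusted p = 3.2e-10). Against the block, 3437 features passed the test in the same direction at 120 min and at 140 min taken alone. Among the named genes, *cdt1* (0.13 at 120 min alone, adjusted p = 0.326), *zrt1* (0.19 at 120 min alone, adjusted p = 0.146), *map2* (0.62 at 140 min alone, adjusted p = 0.188) and *adg1* (0.00 at 140 min alone, adjusted p = 0.996) passed it at only 1 of these times.

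The same difference was measured in the mutants of Nrm1, and the difference between strains was tested as an interaction. In Nrm1-SD only 28 features (0.377%) differed from Nrm1, and in Nrm1-SA 278 (3.74%). At 140 min the 2 Nrm1-SA replicates were closer to each other than sampling noise allows, so they were averaged and counted as 1 sample, and at 120 min alone, without them, 166 features differed in Nrm1-SA. The plot of the 3 strains shows the values. For *hsp16*, Nrm1-SA had 1866 and 2609 normalized counts at the block, between 685 and 811 in cycling G2, so that the difference was -1.56 in place of -5.34 (interaction 3.78, SE 0.283, adjusted p = 3.5e-14, and 3.51 at 120 min alone). For *ssa1* the difference was -2.69 in place of -5.48 (interaction 2.79, SE 0.332, adjusted p = 6.3e-08). Of the 22 chaperones, 9 differed between Nrm1-SA and Nrm1 and none between Nrm1-SD and Nrm1, and the median of the list was -1.76 in Nrm1-SA and -2.71 in Nrm1-SD.

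**Figure D4:**
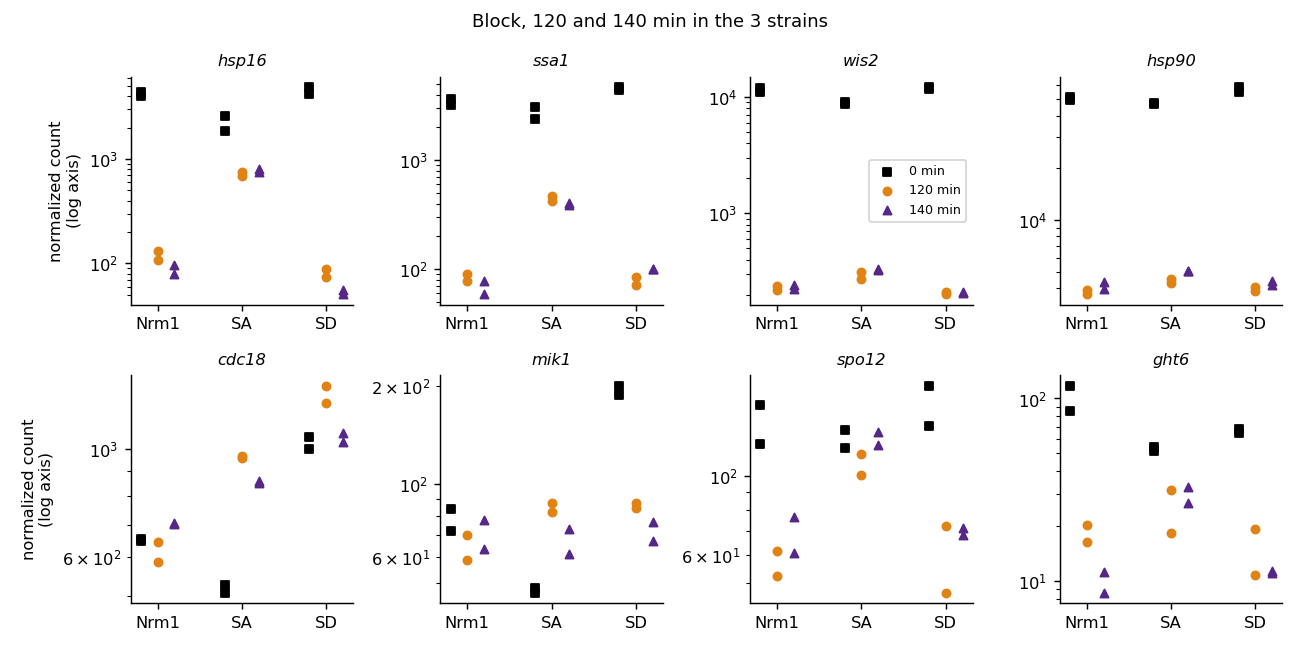
Normalized counts on log axes of 8 genes at 0 min (squares), 120 min (circles) and 140 min (triangles) in Nrm1, Nrm1-SA and Nrm1-SD, 1 point per library. In hsp16 and ssa1 the cycling samples of Nrm1-SA lie above those of the other strains, and cdc18 is lowest in the block of Nrm1-SA.

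Of the G1/S genes, 11 of 19 differed in Nrm1-SA (median interaction 0.45), beside 3.74% of all features. In Nrm1-SD 2 of 19 differed, beside 0.377% of all features. *cdc18*, which did not change in Nrm1, rose in Nrm1-SA from 526 and 508 at the block to 966 and 956 at 120 min and 850 and 860 at 140 min (0.81, interaction 0.80, SE 0.0788). *mik1* went opposite ways in the mutants, with a difference of 0.66 in Nrm1-SA and -1.29 in Nrm1-SD against -0.21 in Nrm1, and *nrm1* fell further in Nrm1-SD (-1.76). No histone gene passed the test of this interaction in either mutant. These strain differences include differences at the block itself, since each is a difference of differences.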

How the data were processed

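Polyadenylated RNA of 78 libraries was sequenced from hot phenol extracts with a directional kit. The deposited table holds a signal per annotated feature: the authors checked reads with FastQC, aligned them with STAR, used HTSeq for counting, and divided each count by the DESeq2 size factor of its library. Trimmomatic and the build ASM294v2 are named only in the submitters' processing notes, and the methods of the study name the reference by a release date and mention no trimming. The strand setting was not given in the sources used here. Whole reads could be recovered from 74 of the 78 columns, including the 6 compared here.

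Of 12683 features, 7429 with a mean of at least 10 were tested with limma 3.58.1 (R 4.3.3, intensity trend) on log2(value + 1). The fit held 39 condition means over 77 libraries, since the 2 Nrm1-SA libraries at 140 min were averaged. The contrast was the mean of 120 and 140 min minus 0 min, with Benjamini-Hochberg adjustment over all features and a threshold of 0.1. The study gives its 2 replicates as biological. The 4 cycling libraries are 2 replicates at 2 times, and the main fit treated them as independent, which they may not be. With 4 against 2 libraries a 2-sided exact permutation test that doubles the tail cannot go below p = 0.133, so p-values rest on the spread shared over all conditions. Other tests and settings (edgeR 4.0.16 and DESeq2 1.42.0 on recovered reads, other scalings, filters, pseudocounts, libraries and the replicate block) were run as alternatives.

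Names, neighbours, coordinates and the 250 bases upstream of gene starts came from RefSeq ASM294v3, in which 12602 features were matched. This differs from the build of the counts. Near-identical copies were found with BLAST 2.17.0 (at least 95% identity over 50% of the gene). Named genes were 11 cell cycle genes, up to 4 changed members with the largest difference in each of 23 lists, and the 10 protein-coding and 3 noncoding features with the largest rises and falls among those that changed, did not overlap between groups and had a mean of at least 50. Other members named were chosen after their values were seen. The comparison and the lists were chosen with earlier results of these data known.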

Additional observations from a re-analysis of the deposited data

Results flagged for a closer look

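The difference between cycling G2 and the block was not the same in all strains for 34 of the named genes, by the interaction test of limma with adjustment over all features. Each value below is the log2 difference in the mutant minus that in Nrm1, so that a positive value means a smaller fall or a larger rise in the mutant. Chance passes some features at this threshold. Many of the named genes were picked for the size of their change in Nrm1. The same Nrm1 libraries enter the interaction, so this choice favours a smaller change in the mutant.

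In Nrm1-SD, *nrm1* (-0.67), *mik1* (-1.08) and *yhb1* (-0.54) differed. At 120 min alone *nrm1* did not pass the test (adjusted p = 0.142).

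In Nrm1-SA, genes that fell in Nrm1 fell by less: *hsp16* (3.78), *ssa1* (2.79), *psi1* (0.96) and *wis2* (0.80) among chaperones and their partners, *tps1* (0.89), *plr1* (0.60) and *ntp1* (0.58) among stress genes, *rpn11* (0.25) of the proteasome, *spo12* (1.03) and *cdc15* (0.50) of mitosis, *pol1* (0.39) of replication, *ght6* (1.85), *thi2* (0.44), *mug35* (1.00) and *SPNCRNA.687* (1.61). Among G1/S genes, *cdc18* (0.80), *cdc22* (0.84), *cdt1* (0.86) and *mik1* (0.87) were shifted upward, as were *agn1* (0.70) and *pho4* (0.53).

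Other genes that rose in Nrm1 rose by less in Nrm1-SA, or fell. These were *SPAC977.05c* (-3.38), *adh4* (-1.53), *SPNCRNA.6375* (-1.35), *spo6* (-1.17), *SPNCRNA.1378* (-1.07), *meu7* (-0.92), *isp3* (-0.79), *SPNCRNA.6197* (-0.79), *ght8* (-0.73), *cbm1* (-0.60), *obr1* (-0.57) and *yhb1* (-0.35). *SPAC977.05c* was already at 1154 and 847 normalized counts in the block of Nrm1-SA. *adh4* had 53830 and 48385 in the block of Nrm1-SA, against 1177 and 1464 in that of Nrm1. Its asynchronous values were 43350 and 42952 in Nrm1-SA, against 1522 and 1448 in Nrm1. The level of *adh4* thus differed between these strains outside the G2 comparison as well. At 120 min alone the calls of *ntp1*, *rpn11*, *ght6*, *isp3*, *yhb1*, *cbm1*, *SPNCRNA.1378* and *SPNCRNA.6197* were lost, with adjusted p-values between 0.105 and 0.545.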

How the results depend on the processing

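No named gene passed the test in opposite directions in the main fit and in an alternative. The sign of a small difference could change. *cdc18* (0.01 in the main fit) was lower at 120 min alone, with 587.3 and 645.5 normalized counts against 649 and 654.7 at the block. The count of changed features, 4549 in the main fit, was clearly lower when either replicate was left out, which leaves 1 library of the block. It was 4651 with edgeR (4422 shared with limma, all in the same direction) and 4282 with DESeq2. Rises and falls of at least 1 numbered 937 and 939 with no filter and 184 and 222 with a mean of at least 50, where more or fewer features with low counts were tested. Without a replicate there were 422 to 581 such rises and 511 to 555 such falls, 1746 to 1790 features were higher and 1617 to 1842 lower. Scaling by library total moved the median of all features from 0.003 to 0.066 and the share of calls that were higher from 50.3% to 57.7%. At 120 min alone, an alternative chosen after seeing the data that uses no library of 140 min, 166 features differed in Nrm1-SA and 17 in Nrm1-SD, and edgeR also called 17 in Nrm1-SD. With the replicate number as a block, 4626 features changed, 552 differed between 140 and 120 min, and 379 and 36 differed in Nrm1-SA and Nrm1-SD. The numbers were not shown to pair the samples, since deviations of same-numbered libraries correlated at -0.0144, 0.1927 and 0.1221. Of 114 named genes, 7 lost their call without replicate 1 and 3 without replicate 2. Low depth in replicate 2 of the block limits the precision of genes with few reads.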

Other observations

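Protein-coding genes and noncoding RNAs on opposite strands formed 2388 tested pairs. Both members changed in 804 of them, where 65.2% of all protein-coding genes and 53.5% of all long noncoding RNAs changed, and the directions were split about evenly (414 the same, 390 opposite). Both blocked and cycling cells were far from the asynchronous culture in the hexose transport and glucose-repressed genes, with medians of -2.47 at the block and -3.14 at 120 min relative to it.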
